A study of Mus musculus with 6 samples.

Results

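The carbonic anhydrase family was examined in choroid plexus epithelium of the mouse, through the probe sets of the array whose single gene symbol in the platform annotation was Car2, Car3, Car4, Car5b, Car7, Car9, Car11, Car12, Car13 or Car14. These 10 genes had 21 probe sets among 45101 rows. A filter that removed the dimmest 40% of probe sets left 16 of the 21, and all 10 genes kept at least 1. The other 6 family genes with a probe set of their own symbol (Car1, Car5a, Car6, Car8, Car10 and Car15) were not members and served as a related list.

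Choroid plexus epithelium, labelled as taken from whole brain, gave 6 samples of total RNA, each read on 1 array. By their descriptions, 3 came from wild type mice of the inbred strain B10.PL and 3 from RAG-/- mice of that strain. RAG-/- mice cannot assemble antigen receptor genes and so have no mature T or B cells. Which RAG gene was disrupted is not stated, nor are the age of the mice and whether a sample pooled several, so a p-value covers sample-to-sample spread that may in part be technical. A code in the titles joins 1 sample of each genotype into each of 3 pairs. In pair 1 the description states that the samples had been reversed and the titles give the opposite genotypes, so results are given by description, with those by title beside them.

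Carbonic anhydrases convert carbon dioxide and water into bicarbonate and a proton, and back. The choroid plexus secretes cerebrospinal fluid by moving sodium, chloride and bicarbonate from blood to ventricle, and carbonic anhydrase inhibitors slow that secretion. Family members differ in where they work. Car2, Car3, Car7 and Car13 are cytosolic, Car5b is mitochondrial, Car4 is tethered to the outer cell surface by a lipid anchor, Car9, Car12 and Car14 span the membrane with the catalytic domain outside, and Car11 is a related protein without catalytic activity.

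Values are log2(intensity + 16) after quantile normalization, the scale on which all levels and differences below are given. The median deposited intensity ran from 77.8 to 97.1 over the arrays. RAG-/- replicate 2 stood apart, at 106 on the first principal component, where the other arrays lay between -69.3 and 31.2. Of 18 epithelial markers other than the members, 16 were measured, and their genes lay at mean percentiles between 81.3 and 99.98 of all probe sets, with the thyroid hormone carrier Ttr highest. The mean of this list was 13.22 to 13.30 in wild type and 12.30 to 13.42 in RAG-/- arrays, and 12.30 was that of RAG-/- replicate 2. Markers of other cell types were present as well. The means of 8 neuronal genes ran from 10.04 to 11.39 in wild type and from 9.49 to 12.44 in RAG-/-, and those of 11 oligodendrocyte genes from 9.78 to 10.55 and from 10.08 to 11.70. In such bulk samples fewer cells of a type and less RNA per cell cannot be told apart. Rag1, which is not stated to be the disrupted gene, was dim, at a mean percentile of 26.9. It was at 6.54, 4.16 and 4.35 in WT replicates 1, 2 and 3. In RAG-/- replicates 1, 2 and 3 it was at 4.60, 6.92 and 6.31. It was higher in the 3 arrays titled RAG, and whether its probe lies in a deleted stretch is not known, so RAG-/- below means labelled so. The fibroblast and meninges list was lower in RAG-/- at 10 of 10 genes (median -1.05) by description and at 8 of 10 (median -0.41) by title, and 0 passed the test by either.

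The labels give no sex, and the arrays were not alike in genes that depend on it (read after their values were seen). Xist, the RNA of the inactive X chromosome, was at 12.88, 12.95 and 13.19 in WT replicates 1, 2 and 3 and at 9.04, 12.20 and 7.43 in RAG-/- replicates 1, 2 and 3. The Y-linked gene Eif2s3y was at 9.47 and 9.76 in RAG-/- replicates 1 and 3 and between 4.19 and 5.76 in the other 4 arrays, and Kdm5d and Uty were likewise highest in those 2 arrays. By description 2 of 3 RAG-/- arrays and 0 of 3 wild type arrays thus had high Y-linked signals, and by title 1 of 3 in each group. The part of sex in the genotype differences below was not tested.

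Car2, Car12 and Car14 were the brightest members in all 6 arrays, and no member passed the test for a difference between RAG-/- and wild type. At the brightest probe set of each gene, Car2 lay at a mean percentile of 99.1, Car12 at 98.5 and Car14 at 96.4. Car7, at 77.3, and Car11, at 71.4, followed. Car3 (64.7), Car13 (62.0), Car4 (59.4), Car9 (56.2) and Car5b (55.8) lay near the middle of the array. Probe sets differ in brightness at the same amount of RNA, and the files give no detection calls, so this order is one of signals and not of transcript amounts.

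Within arrays the top of the order was steady and the lower part was not. Car14 was at position 3 in 6 of 6 arrays, and Car2 was above Car12 in 5 of 6, the exception being WT replicate 3, with a gap of 0.44 ± 0.72 (SD, n = 6). The gap between Car14 and Car7, the next gene, was 3.11 ± 1.16 (SD, n = 6). From Car7 downward each gap between neighbours in the order was smaller than its SD over the 6 arrays. Car3 and Car13, and Car13 and Car4, stood in either order in 3 of 6 arrays each. Car4 ranged from position 5 in WT replicate 2 to position 10 in both arrays of pair 3. Taking the mean percentile over all probe sets of a gene put Car12 below Car11 in 4 of 6 arrays. Car12 has 3 probe sets, of which 1 lay at a mean percentile of 22.1.

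**Figure D1:**
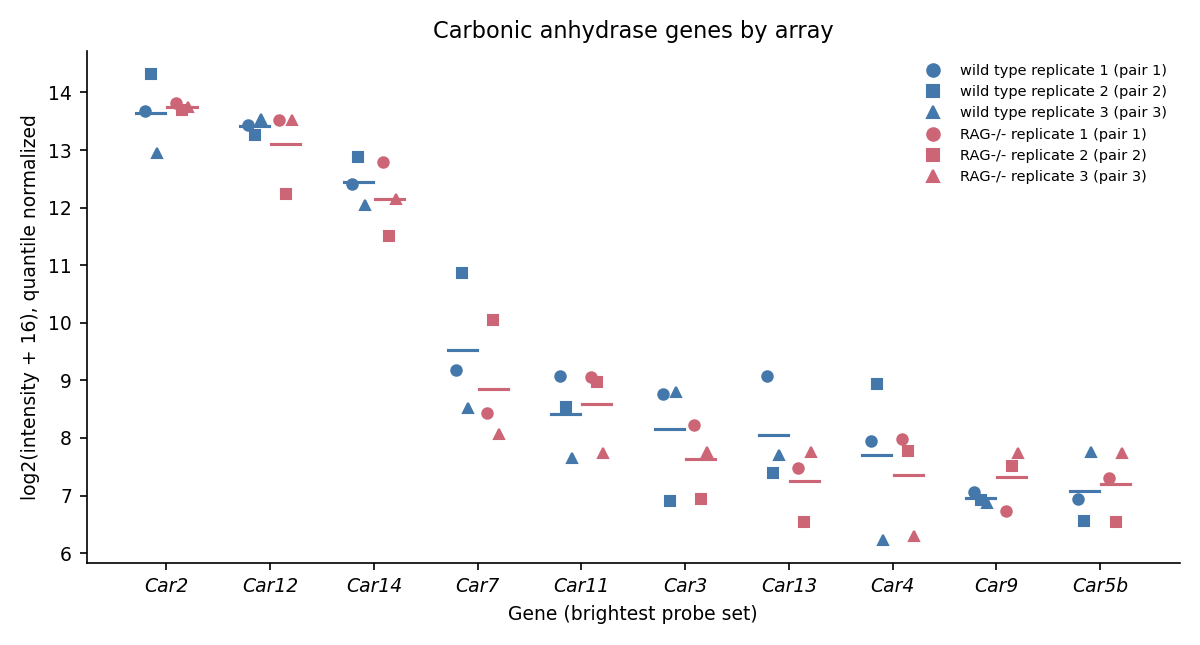
Level of the 10 carbonic anhydrase genes at the brightest probe set, as log2(intensity + 16) after quantile normalization, with wild type in blue and RAG-/- in red (by description), the pair as the marker shape and the group mean (n = 3) as a bar. Car2, Car12 and Car14 lie above 11 in every array and the other genes below, and the genotypes overlap for each gene.

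Car2 (probe set 1448752_at), the fast cytosolic enzyme, did not differ between genotypes beyond the spread between replicates, and that spread lay mostly in wild type. The deposited intensities were 12588, 19951 and 8408 in WT replicates 1, 2 and 3 and 14588, 11432 and 15378 in RAG-/- replicates 1, 2 and 3. On the log2 scale these became 13.69, 14.32 and 12.94 in wild type and 13.82, 13.69 and 13.75 in RAG-/-. WT replicate 2 was the highest and WT replicate 3 the lowest of all arrays, and the 3 RAG-/- arrays lay between them. Mean Car2 was 13.65 ± 0.69 for wild type against 13.75 ± 0.07 for RAG-/- (SD, n = 3), and the difference was 0.10 (95% interval from -0.62 to 0.82, limma adjusted p = 1). By title it was 0.01.

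Car2 is also a gene of oligodendrocytes, the myelin-forming cells of the brain, and their markers were read beside it. Of 12 markers listed, 11 were measured, at mean percentiles between 62.5 and 99.9. All 11 were higher in RAG-/- arrays, with a median difference of 1.08 where all probe sets had -0.01, and 0 of 11 passed the test. By title 11 of 11 were higher, with a median of 1.24. The list mean was 10.55, 10.27 and 9.78 in WT replicates 1, 2 and 3 and 10.08, 11.70 and 11.65 in RAG-/- replicates 1, 2 and 3. Car2 did not take the same course. Its difference between the arrays of a pair was 0.13, -0.63 and 0.80 in pairs 1, 2 and 3, where the marker mean differed by -0.47, 1.43 and 1.87. Car2 was thus lower in the RAG-/- array of pair 2, in which the myelin markers were higher, while in pair 3 both were higher. The part of oligodendrocyte content in the Car2 signal was not tested.

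Against the epithelial markers Car2 varied more than the other bright members. Car2 minus the epithelial list mean was 0.47, 1.03 and -0.30 in WT replicates 1, 2 and 3 and 0.40, 1.39 and 0.43 in RAG-/- replicates 1, 2 and 3, a range of 1.69. In RAG-/- replicate 2 the epithelial mean was lowest, and the oligodendrocyte and neuronal means and that of 7 astrocyte genes were highest. Car2 stayed at 13.69 there, and its gap over Car12 was the widest of all arrays, at 1.44. In RAG-/- replicate 3, with an oligodendrocyte mean of 11.65, the gap was 0.22. The gap was -0.59 in WT replicate 3. The genes whose course over the 6 arrays was closest to that of Car2, by the root mean square difference of mean-centred log2 values, were Fahd1 (0.083), Mindy3 (0.092), 1700012D14Rik (0.096) and Cela3b (0.11), of 13537 genes.

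Car12 (probe set 1428485_at) and Car14 (1450725_s_at), the membrane-spanning enzymes that face the extracellular fluid, were lowest together in 1 array. Car12 was at 13.44, 13.25 and 13.54 in WT replicates 1, 2 and 3 and at 13.53, 12.24 and 13.53 in RAG-/- replicates 1, 2 and 3. Apart from RAG-/- replicate 2, the arrays lay between 13.25 and 13.54. Car14 was at 12.41, 12.87 and 12.05 in wild type and at 12.80, 11.51 and 12.15 in RAG-/-, again lowest in RAG-/- replicate 2. The deposited intensity of Car12 was 4505 in that array and between 9420 and 13202 in the others, and that of Car14 was 2804 against 4403 to 7294.

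The low values of Car12 and Car14 went with a low level of the other epithelial markers. In pair 2 the RAG-/- array differed from wild type by -1.01 for Car12, by -1.37 for Car14 and by -1.0 for the epithelial list mean. Car12 minus that mean ran only from -0.05 to 0.29 over the 6 arrays, a range of 0.34 where Car12 itself ranged over 1.29. Car14 minus the mean ranged over 0.77, from -1.19 in WT replicate 3 to -0.42 in WT replicate 2. The part of epithelial content in the Car12 and Car14 signals was not tested. Over all arrays the differences were -0.31 for Car12 (13.41 ± 0.14 in wild type, 13.10 ± 0.74 in RAG-/-) and -0.29 for Car14 (12.45 ± 0.41 and 12.15 ± 0.65; SD, n = 3), each with an adjusted p of 1 by limma. Without RAG-/- replicate 2 they turned to 0.12 and 0.03. By title they were -0.37 for Car12 and -0.55 for Car14, with adjusted p of 1 by limma.

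Car12 and Car14 lay furthest apart in pair 3. The gap between their probe sets was 1.48 and 1.38 in the wild type and RAG-/- arrays of that pair and between 0.38 and 1.03 in the other 4. Car12 was high in pair 3, whereas Car14 was lower there than in pair 1 or in WT replicate 2. By genotype the mean gaps were 0.96 ± 0.55 (wild type) and 0.95 ± 0.37 (RAG-/-; SD, n = 3). The genes closest in course to Car12 were Calml4 (0.043), Irgm2 (0.044), Cbr3 (0.060) and Plcd1 (0.061), and those closest to Car14 were Emcn (0.029), Ctsz (0.084), Mfge8 (0.085) and Prodh (0.088). These likenesses rest on 6 arrays, of which 1 is far from the rest, and Emcn is also in the endothelial list.

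The promoters of Car12 and Car14 are shown because these genes were lowest together in 1 array and lay furthest apart in pair 3. That of Car9 is shown because it is known for its response to low oxygen. RefSeq (build GRCm38.p6) gave a promoter for 7 of the 10 members, without Car2, Car3 and Car13. The 250 bases before the start site are printed 5′ to 3′ in the direction of the gene. Capitals mark ACGTG, the core that hypoxia-inducible factors bind, and TAATCC, a site of OTX homeodomain factors such as the choroid plexus factor Otx2, on either strand. The windows are chr9:66713436-66713685 on the plus strand for Car12, chr3:95904686-95904935 on the minus strand for Car14 and chr4:43506776-43507025 on the plus strand for Car9.
Car12: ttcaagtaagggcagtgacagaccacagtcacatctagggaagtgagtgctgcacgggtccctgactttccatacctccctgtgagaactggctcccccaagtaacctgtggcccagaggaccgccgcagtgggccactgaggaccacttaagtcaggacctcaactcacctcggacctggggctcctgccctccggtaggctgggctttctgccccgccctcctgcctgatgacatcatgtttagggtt
Car14: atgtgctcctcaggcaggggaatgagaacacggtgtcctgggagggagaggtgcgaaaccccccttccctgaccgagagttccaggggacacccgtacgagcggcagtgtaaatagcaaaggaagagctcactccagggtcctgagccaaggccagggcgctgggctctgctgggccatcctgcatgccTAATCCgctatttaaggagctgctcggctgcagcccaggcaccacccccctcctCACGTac
Car9: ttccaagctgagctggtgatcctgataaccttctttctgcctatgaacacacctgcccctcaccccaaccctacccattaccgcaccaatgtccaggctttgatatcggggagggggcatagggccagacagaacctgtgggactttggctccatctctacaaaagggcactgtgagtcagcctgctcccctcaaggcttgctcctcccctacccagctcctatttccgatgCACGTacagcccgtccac
Car14 held both motifs, with TAATCC starting at -61 and the ACGTG core at -7, and Car9 held the core at -18. Car12 held neither in this window. Of the members whose promoters are not printed, Car5b held TAATCC at -108, and Car4, Car7 and Car11 held neither motif. Of 32851 promoter windows of this length in the table, 16.6% held ACGTG and 6.25% held TAATCC on either strand. A match describes letters and no measured binding.

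Car9 (probe set 1427013_at), the low-oxygen-induced enzyme, was dim, and was the member whose order of arrays followed the titles. It was at 7.06, 6.92 and 6.87 in WT replicates 1, 2 and 3 and at 6.73, 7.52 and 7.74 in RAG-/- replicates 1, 2 and 3. By description the groups overlapped (6.95 ± 0.10 and 7.33 ± 0.53, SD, n = 3) and differed by 0.38 (adjusted p = 1 by limma). By title they did not overlap, since the array titled RAG in pair 1 is WT replicate 1, and the difference was 0.60 (95% interval from -0.11 to 1.31, limma adjusted p = 1). Its differences within pairs by title were 0.33, 0.60 and 0.87. Of the 10 members 1 did not overlap by title, and of all probe sets tested 4.78% did not. By description 0 of 10 were without overlap, where all probe sets had 3.44%. Of 12 other genes of the low-oxygen response, 4 were higher and 8 lower in RAG-/- by description (median -0.16) and 0 passed the test. Among them Egln3 differed by -0.62 and Pdk1 by -0.57, and by title the list median was -0.01.

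Car4 (probe set 1448949_at), the lipid-anchored enzyme also known from brain capillaries, was low in pair 3. It was at 7.95, 8.94 and 6.24 in WT replicates 1, 2 and 3 and at 7.99, 7.77 and 6.31 in RAG-/- replicates 1, 2 and 3. Both arrays of pair 3 were lower than all others. The other probe set of Car4 gave the same picture, with 5.87 and 6.41 in pair 3 and 7.65 to 8.67 elsewhere. The pair means of the brightest probe set spanned 2.08, while the genotype difference was -0.35 (95% interval from -2.0 to 1.29). By title it was -0.38. The mean of endothelial markers, over 11 of 11 measured genes, was 9.48, 8.6 and 8.57 in wild type and 8.92, 7.94 and 8.23 in RAG-/-, highest in WT replicate 1. Its genes lay at mean percentiles from 26.7 (Pecam1) to 97.8, and 10 of 11 passed the filter. All 10 were lower in RAG-/- by description (median -0.46), 8 of 10 by title (median -0.12), and 0 passed the test. The list mean differed by -0.55, -0.66 and -0.34 within pairs 1, 2 and 3, where Car4 differed by 0.04, -1.17 and 0.07. The part of endothelial content in the Car4 signal was not tested.

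Car7 (probe set 1443824_s_at), a cytosolic enzyme of neurons, was highest in pair 2 and lower in the RAG-/- array of every pair by description. It was at 9.19, 10.87 and 8.53 in WT replicates 1, 2 and 3 and at 8.44, 10.06 and 8.07 in RAG-/- replicates 1, 2 and 3. The differences within pairs were -0.75, -0.82 and -0.46. Over the groups the difference was -0.67 (9.53 ± 1.21 and 8.85 ± 1.06, SD, n = 3; limma adjusted p = 1). With the pair as a replicate block the interval narrowed to between -1.22 and -0.13, with an unadjusted p of 0.022 and an adjusted p of 1 by limma. By title pair 1 turns and the difference was -0.18. Without WT replicate 2 it was -0.003 by description. The other probe sets of Car7 were likewise highest in pair 2, and differed between genotypes by -0.38 and 0.34. The neuronal list mean was highest in pair 2 too, at 11.39 in its wild type and 12.44 in its RAG-/- array. Within that pair the neuronal markers were thus higher in the RAG-/- array and Car7 lower, and the part of neuronal content was not tested.

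Among the other cytosolic members, Car13 (probe set 1421307_at) stood out in 1 array. Its brightest probe set was at 9.07, 7.39 and 7.71 in WT replicates 1, 2 and 3 and at 7.47, 6.54 and 7.76 in RAG-/- replicates 1, 2 and 3. WT replicate 1 was the highest array at all 3 of its probe sets. The difference of -0.80 (8.06 ± 0.89 and 7.26 ± 0.64, SD, n = 3; limma adjusted p = 1) had the largest size among the members, about 1.74-fold. It was -0.29 without WT replicate 1 and turned to 0.26 by title. WT replicate 1 also had the highest list means of fibroblasts and meninges (11.84, where the other arrays had 9.26 to 10.94) and of endothelium (9.48). It was likewise highest for macrophages and microglia (9.83), red blood cells (6.91), the low-oxygen response (10.89) and bicarbonate and proton transport (8.31). The part of these in the Car13 signal was not tested.

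Car3 (probe set 1449434_at), a low-activity enzyme abundant in muscle and fat, was low in pair 2. It was at 8.76, 6.90 and 8.79 in WT replicates 1, 2 and 3 and at 8.22, 6.94 and 7.76 in RAG-/- replicates 1, 2 and 3, a difference of -0.51 (95% interval from -1.84 to 0.81). By title it was -0.15. The other 3 probe sets of Car3 were dim, did not pass the filter and had differences of 0.43, 0.20 and 0.05, so that the sign rested on 1 probe set. Skeletal muscle markers (9 of 9 measured) and adipocyte markers (4 of 6) lay at mean percentiles of at most 36.0 and 34.1, and none of them passed the filter. Car3, Car13 and Car2 are neighbours on chromosome 3 in the gene table of GRCm38.p6, in the order Car13, Car1, Car3, Car2, and their highest arrays differed, being WT replicate 3 for Car3, WT replicate 1 for Car13 and WT replicate 2 for Car2.

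**Figure D2:**
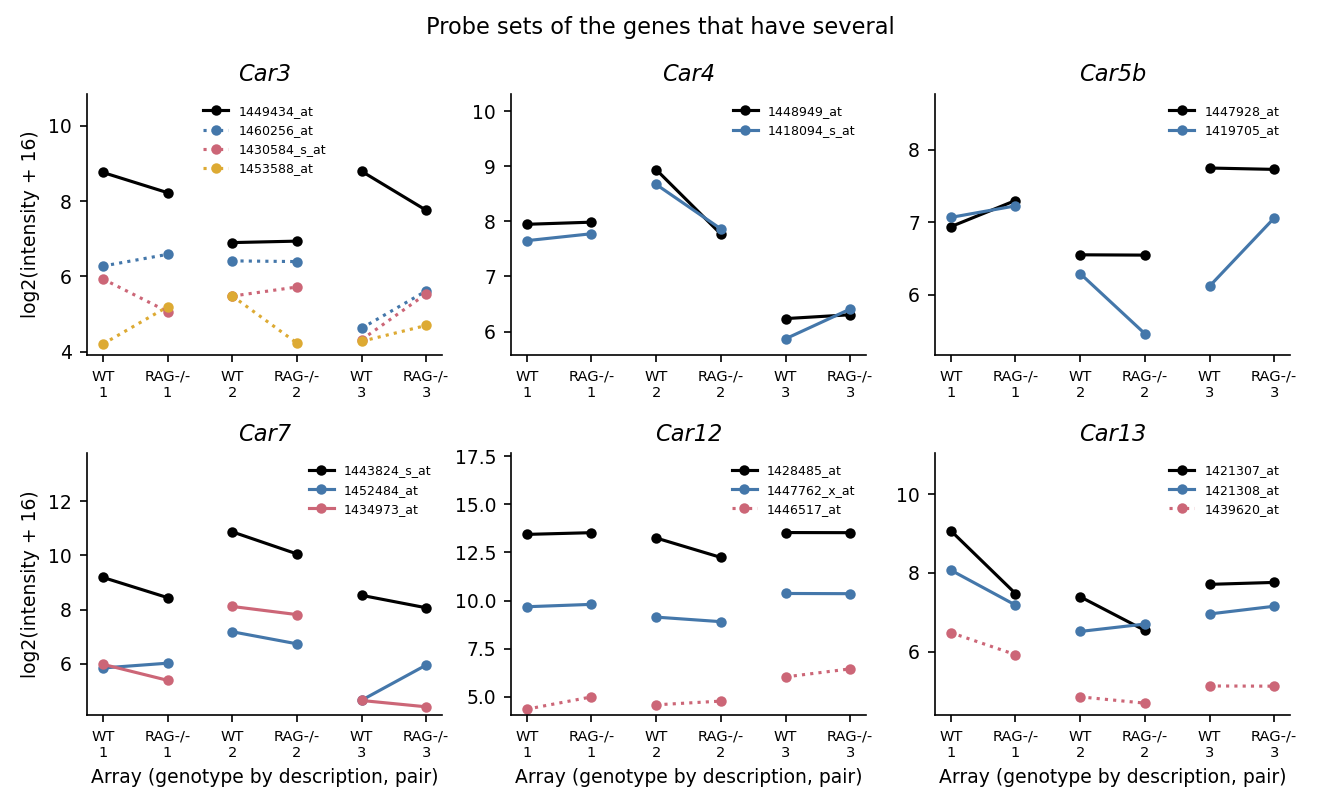
Level at each probe set of the 6 members that have several, as log2(intensity + 16) after quantile normalization, by array, with the arrays of a pair joined and probe sets below the filter dotted. The probe sets of Car4 share the low pair 3, those of Car7 the high pair 2, those of Car13 share the high WT replicate 1, and those of Car3 differ in course.

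Car5b (probe set 1447928_at), the mitochondrial enzyme, and Car11 (1424379_at), the member without catalytic activity, followed the pairs at these probe sets. Car5b was at 6.94, 6.55 and 7.75 in WT replicates 1, 2 and 3 and at 7.30, 6.55 and 7.73 in RAG-/- replicates 1, 2 and 3. The arrays of pairs 2 and 3 differed by no more than 0.02 within the pair, while the pair means spanned 1.19. The other probe set of Car5b agreed only in part. Its pair mean was likewise lowest in pair 2. Within pairs 1, 2 and 3 it differed by 0.16, -0.83 and 0.94, with 6.12 in WT replicate 3 and 7.06 in RAG-/- replicate 3. Car11 was at 9.08, 8.54 and 7.65 in wild type and at 9.06, 8.97 and 7.75 in RAG-/-, low in both arrays of pair 3. The genotype differences were 0.11 for Car5b, which lies on the X chromosome, and 0.17 for Car11, and by title -0.13 and 0.18.

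The comparison the study was designed for, RAG-/- against wild type, called no carbonic anhydrase. By description 0 of 16 member probe sets tested passed an adjusted p of 0.05 with limma, against a background of 0% of 27022 probe sets, and at an unadjusted p under 0.05 there were 0 of 16 members and 192 of all (0.711%). With the pair as a replicate block 0 of 16 passed, against 0%, and 1 of 16 (Car7) had an unadjusted p under 0.05, as did 2.35% of all. By title 0 of 16 passed, against 0%, and 0 of 16 had an unadjusted p under 0.05, against 1.23%. By title with the replicate block 0 of 16 passed, against 0.0037%, and 0 of 16 had an unadjusted p under 0.05, against 4.14%. At the brightest probe sets 4 members were higher and 6 lower in RAG-/- by description, with a median difference of -0.30 where all probe sets tested had -0.01. Over all 16 member probe sets tested the median was -0.11. By title 4 were higher and 6 lower, with a median of -0.14 against -0.03.

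The 95% intervals of all 10 genes included 0 by either reading. They were narrowest for Car2, Car12, Car9 and Car14, whose bounds by description lay between -1.12 and 1.18. They were widest for Car4 (-2.0 to 1.29) and Car7 (-2.28 to 0.93). By description 1 of 10 members (Car7) differed in the same direction in all 3 pairs, where 21.6% of all probe sets tested did, and by title 4 of 10 (Car5b, Car9, Car11 and Car12) did, where 25.2% of all did.

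**Figure D3:**
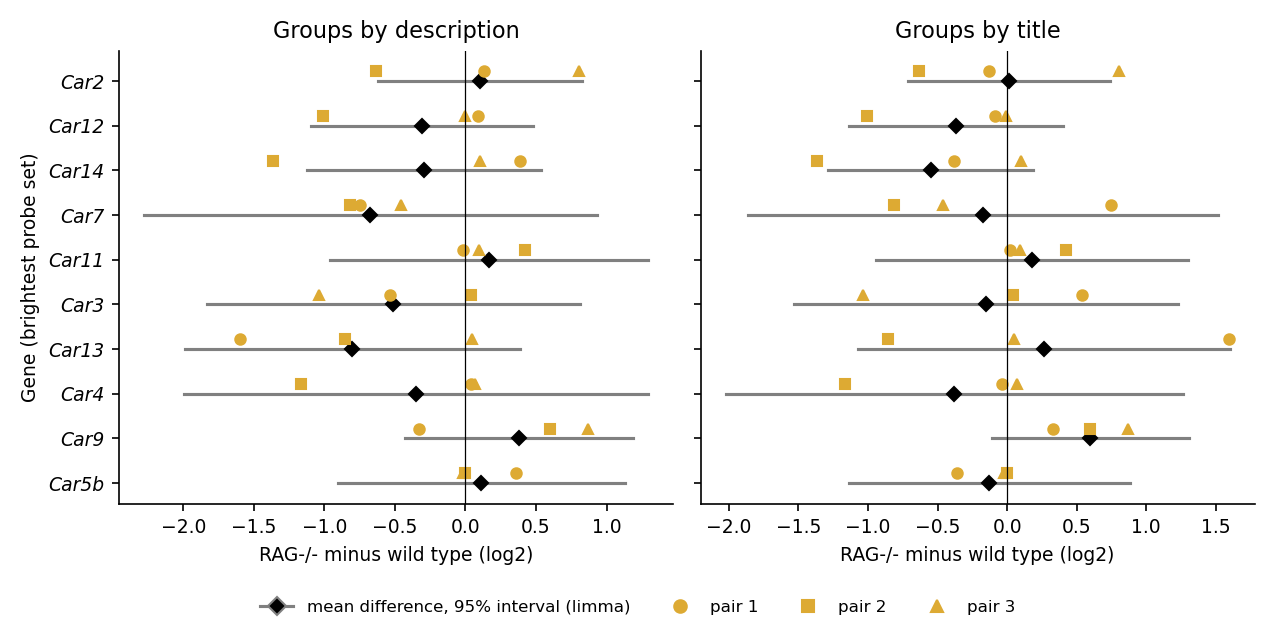
Difference RAG-/- minus wild type (log2) of the 10 genes at the brightest probe set, by description on the left and by title on the right, with the limma estimate (diamond), its 95% interval (grey line) and the difference within each of the 3 pairs (yellow). Every interval crosses 0, and for Car12 and Car14 pair 2 has the lowest of the pair differences, at -1.01 and -1.37.

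The spread between pairs differed widely among the members. The SD of the 3 pair means was above the median of all probe sets tested for 7 of 10 members, and the mean size of the difference within a pair was above its median for 8 of 10. The SD of the pair means was 1.13 for Car7, 1.11 for Car4, 0.85 for Car3 and 0.72 for Car11, against a median of 0.35 over all probe sets tested. For Car2, Car9, Car13 and Car14 the difference within a pair was the larger of these measures. For Car9, Car14 and Car2 the SD was 0.22, 0.27 and 0.33, below that median. At the brightest probe sets, the mean size of the difference within a pair was smallest for Car5b (0.13) and Car11 (0.18). It was largest for Car13 (0.83), where all probe sets had a median of 0.37. Pair 3 had the lowest pair mean for 5 members and pair 2 for 4.

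**Figure D4:**
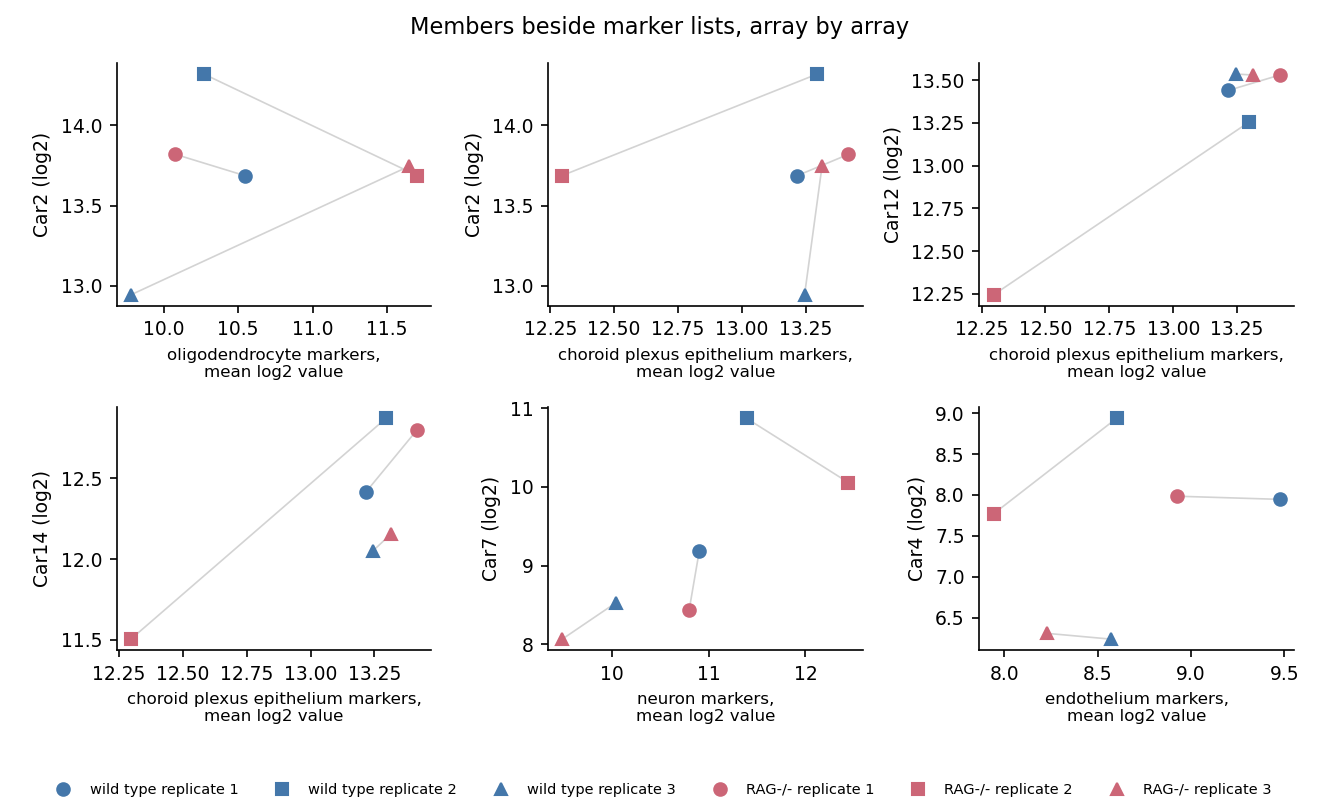
Level (log2) of Car2, Car12, Car14, Car7 and Car4 against the mean log2 level of marker genes of a cell type in the same array, with the arrays of a pair joined by a grey line. Car12 and Car14 are lowest in RAG-/- replicate 2, where the epithelial mean is 12.30, while Car2 stays at 13.69 there.

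The partners of carbonic anhydrase in ion and fluid transport did not pass the test either. Of 27 listed bicarbonate and proton transport genes 15 were tested, 8 higher and 7 lower in RAG-/- by description (median 0.04), and 0 passed. The smallest unadjusted p were those of Slc26a11, an anion exchanger of the sulfate transporter family, with a difference of 1.19, and of Slc9a2, a sodium-proton exchanger, with -0.83. Of 13 fluid secretion genes 11 were tested, 1 higher and 10 lower (median -0.08), and 0 passed. The mean of the fluid list differed by 0.12, -0.53 and 0.02 within pairs 1, 2 and 3, so it was lower in RAG-/- in pair 2 only. Some of its genes, Kcne2 among them, are also in the epithelial list. Kcne2, a potassium channel subunit, differed by -0.38 and the potassium-chloride cotransporter Slc12a7 by -0.47. The receptor phosphatases Ptprg and Ptprz1, whose outer parts resemble carbonic anhydrase, differed by 0.15 and 0.14. By title the medians of the bicarbonate and the fluid lists were 0.12 and -0.20, and 0 passed.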

How the data were processed

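Expression was measured in 6 samples with 1 single-colour oligonucleotide array each. The deposited table gives 1 linear intensity per probe set and array. How the authors made it is not given in sources used here. The mean of each array without the lowest and highest 2% of probe sets was 500, and the smallest intensity was 0.0791, so no floor had been set. No depth applies to arrays, and their number limits the precision.

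The 64 control probe sets were left out, and values were taken as log2(intensity + 16), which understates changes of dim probe sets. The 75th percentiles differed by 0.232, over a limit of 0.2, and the arrays were quantile normalized. Quantile normalization leaves little room for differences at the top percentiles. The lowest 40% of probe sets by mean were left out. Gene symbols came from the platform annotation, and the 10 members all matched the gene table of GRCm38.p6 by gene number. The brightest probe set stood for a gene. Suffixes _s_at and _x_at mark probe sets that may read related transcripts.

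Differences, RAG-/- minus wild type, were tested over all 27022 remaining probe sets with limma 3.58.1 in R 4.3.3 (lmFit, eBayes with trend, two-sided, Benjamini-Hochberg adjustment, threshold 0.05), after a check on simulated data. Intervals are those of the moderated fit. Arrays of a pair deviated together from their group means (correlations 0.29, 0.39 and 0.58). Arrays that differed in both pair and genotype did not (-0.42 to 0.01), though centring on group means itself lowers those correlations. The title codes were taken to pair the samples, and fits with and without the pair as a replicate block were made. Exact permutation of 3 against 3 arrays cannot go below 0.1 and was not used.

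The genes named were the members, the 4 genes closest in course to each of Car2, Car12 and Car14, fixed markers, Rag1, and for each pathway list the members past the threshold or, with none, the 2 with the smallest p. Of the fixed markers, 1 is not reported here. The members and lists were chosen with earlier results of these data known.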

Additional observations from a re-analysis of the deposited data

How the results depend on the processing

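The counts of calls were recomputed with the genotype of the titles, the replicate block, values as deposited, a common median, pseudocounts of 1 and 64, no filter, array weights, pair 1 left out and each array left out. In each of these 0 carbonic anhydrase probe sets passed. Over all probe sets the count was 0, except for 1 by title with the replicate block (Pttg1, named after its values were seen) and 4 without RAG-/- replicate 2 (Xist, lower in RAG-/-, and 3 unnamed probe sets, higher), so that leaving out single arrays gave 0 to 4. With RAG-/- replicate 2 left out, the RAG-/- arrays were replicates 1 and 3, both with high Y-linked signals, unlike any wild type array. Genotype and sex cannot be told apart in those calls. The replicate block by description changed no call, with 0 passing.

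Car2, Car12 and Car14 were the 3 brightest members in 100% of arrays at the brightest probe set, also without any single array, and in 33.3% by the mean percentile over all probe sets of a gene, when the dim probe set of Car12 counts too. The sign of a member's difference was another one in 23 of 177 recomputed values. Without single arrays, 4 of 10 members (Car3, Car7, Car9 and Car13) kept their sign, and by title Car5b and Car13 turned. Dim probe sets limit what can be said of Car3, Car4, Car5b, Car9 and Car13, which lie near the middle of the arrays.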

Other observations

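Of the family genes that were not members, Car8 and Car10 were the bright ones. Both encode relatives of carbonic anhydrase without catalytic activity, and both are singled out here after their values were seen. Car10 lay at a mean percentile of 95.5, close to that of Car14, and was at 11.58, 11.89 and 12.68 in WT replicates 1, 2 and 3 and at 12.16, 11.20 and 12.51 in RAG-/- replicates 1, 2 and 3, high in both arrays of pair 3 and lowest in RAG-/- replicate 2. Car8, a gene of cerebellar Purkinje cells, was at 12.32, 13.34 and 8.91 in wild type and at 10.24, 12.73 and 10.49 in RAG-/-, a range wider than that of any member. Its differences were -0.37 by description and 1.02 by title, with an adjusted p of 1 by limma in each. Car15, the remaining family gene that was tested, differed by -0.43.

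Car1, Car5a and Car6, known from red blood cells, liver mitochondria and saliva, lay at mean percentiles of 28.9, 24.3 and 25.0 and did not pass the filter. The brightest probe sets of the 10 members all lay above them, the lowest being that of Car5b at 55.8. Of 9 red blood cell markers 4 were measured, at mean percentiles from 20.8 (Hba-a1) to 53.2 (Slc4a1), and 2 of them passed the filter. The other markers listed had no probe set with their own symbol alone, and blood content was not tested.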
